A study of Mus musculus with 6 samples.

Results

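The transcripts of 10 antioxidant enzyme genes were followed in mouse aorta: the superoxide dismutases Sod1, Sod2 and Sod3, catalase (Cat), the glutathione peroxidases Gpx1, Gpx3 and Gpx4, peroxiredoxin 3 (Prdx3), haem oxygenase 1 (Hmox1) and NAD(P)H quinone dehydrogenase 1 (Nqo1). They were taken by symbol from the count table, which lists 55453 genes, and all 10 were present and passed the low-count filter that kept 18192 genes. Both groups of mice carried a floxed Srf allele and 1 copy of Itga8-CreERT2, a Cre recombinase that tamoxifen activates and that is driven from the gene of a smooth muscle integrin. The 3 heterozygous mice (controls) can lose 1 copy of Srf and the 2 homozygous mice (knockouts) both copies, in the cells where Cre acts. Both genotypes were injected with tamoxifen at 33 mg/kg on 5 days and were sampled 10 days after the last dose, so Cre and tamoxifen are common to both. The adventitia and the endothelium were stripped from each aorta before it was frozen on its own, per the labels, which give neither age nor strain. The labels list 3 homozygous mice, of which replicate 1 was not analysed here, and the design text says that 1 homozygous sample was left out as an outlier.

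Superoxide dismutases turn superoxide into hydrogen peroxide, with Sod1 in the cytosol, Sod2 in the mitochondrial matrix and Sod3 secreted into the vessel wall. Hydrogen peroxide and lipid peroxides are then removed by catalase in peroxisomes, by glutathione peroxidases, which are selenoproteins, and by peroxiredoxins such as the mitochondrial Prdx3. Hmox1 breaks down haem and Nqo1 reduces quinones, and both are well-known targets of the stress-responsive transcription factor NRF2.

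Values below are CPM, library-size-scaled counts after TMM (a scaling that evens out library composition). Each log2 fold change sets knockouts over controls and comes with a standard error (SE). Library totals ranged from 26177821 to 34311855 counts. Srf stood at 56.1, 64.4 and 68.3 CPM in control replicates 1, 2 and 3, against 45.0 and 38.6 CPM in knockout replicates 2 and 3. Its log2 fold change was -0.59 (SE 0.122, edgeR adjusted p = 0.115, DESeq2 adjusted p = 0.00373), so Srf transcript was lower in the knockouts but not absent. The smooth muscle markers Flna and Myh11, filamin A and the smooth muscle myosin heavy chain, were abundant in every library. Both were lower in the knockouts, with log2 fold changes of -0.75 (SE 0.132) and -0.77 (SE 0.121). On the first principal component (51.6% of the variance), heterozygous replicate 3 lay at 56.4 and homozygous replicate 3 at the other end, at -42.9. Homozygous replicate 2 lay at -20.5, and heterozygous replicates 1 and 2 at -1.66 and 8.67. Each aorta was frozen separately, so p-values describe the spread among 5 separate aortae.

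Promoter sequences from RefSeq (build GRCm38.p6, 250 bases before to 50 after each start) were at hand for 8 of the 10 genes, in 11 windows. Stretches are printed below as examples. Sod2, Prdx3, Cat and Gpx4 are 4 genes with an unadjusted edgeR p under 0.05, whereas Sod1 had a log2 fold change of 0.16. Different motifs are printed for different genes, and not every motif found is printed, so the stretches alone do not compare the genes. The GC box GGGCGG, the letters bound by the Sp1 family, occurred on either strand in 10 of the 11 windows and in those of all 8 genes, against 35.7% of all 32851 promoter windows. The letters TGACNNNGC of the antioxidant response element, which NRF2 binds, were found in 1 window, that of Sod1, against 12.4% of all windows. Their absence from the other windows, that of Nqo1 among them, says nothing of sequence further away, and Hmox1 had no window. The letters GCGCANGCG, from the motif of nuclear respiratory factor 1, were found in 2 overlapping windows of Gpx4, against 6.25% of all. The letters TNAAGGTCA of estrogen-related receptors (1.28% of all windows) and the CArG box of serum response factor (1.63%) were found in none of the 11, which says only that these letters are not in these windows. Both strands were searched for each motif and a GC box may overlap another. Capitals below mark the motif, in the strand of the gene, 5′ to 3′.
Sod2 GC box, chr17:13007762-13007787, plus strand: ccccgaggcgGGGCGGggccaaggcc
Prdx3 GC box, chr19:60874566-60874591, minus strand: cgctgaggccCCGCCCtcatagggaa
Cat GC box, chr2:103485162-103485187, minus strand: caagggtgggGGGCGGtgctgattgg
Gpx4 nuclear respiratory factor 1 letters, chr10:80053496-80053524, plus strand: tcgcgtcttaGCGCAGGCGcatctgacca
Sod1 antioxidant response element letters, chr16:90220696-90220724, plus strand: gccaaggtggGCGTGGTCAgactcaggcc
Nqo1 GC box, chr8:107403237-107403262, minus strand: acagtgggctGGGCGGgcataagcag
The GC box thus appears both in genes with an unadjusted edgeR p under 0.05 and in Sod1 and Nqo1, which missed that threshold. The log2 fold changes of Sod1 and Nqo1 were 0.16 and -0.28.

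The comparison asks how these transcripts differ when smooth muscle cells can lose both copies of Srf rather than 1. The mitochondrial enzymes Prdx3 and Sod2 had the largest log2 fold changes of the 10, followed by catalase, while Sod1 and Sod3 lay close to 0 and Gpx1 and Nqo1 below it. Of the 10 genes, 0 passed edgeR's quasi-likelihood test at a Benjamini-Hochberg adjusted p under 0.05, where 0% of all 18192 genes passed. At an unadjusted edgeR p under 0.05, 5 of the 10 were higher (Prdx3, Sod2, Cat, Gpx4 and Hmox1), against 9.04% of all genes tested, and 0 were lower, against 6.75%. DESeq2 called 2 of the 10 higher (Prdx3 and Sod2), where it called 3.33% of its genes higher, and 0 lower, against 2.61%. In 7 of the 10 both homozygous libraries lay above all 3 heterozygous libraries, against 17.4% of all genes, and in 1 (Gpx1) both lay below, against 18.2%. The median log2 fold change of the 10 was 0.42, against -0.02 over all genes tested. Without homozygous replicate 2 the count at an unadjusted edgeR p under 0.05 was 2 higher, against 6.47% of genes in that fit, and without heterozygous replicate 3 the lower count was 1. Over all genes, 1644 were higher and 1228 lower by that measure, 903 and 642 without homozygous replicate 3 and 1220 and 768 without homozygous replicate 2. Since the genes were chosen with earlier results known, these counts are descriptions. In whole tissue, more cells of a type and more RNA per cell cannot be told apart.

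**Figure D1:**
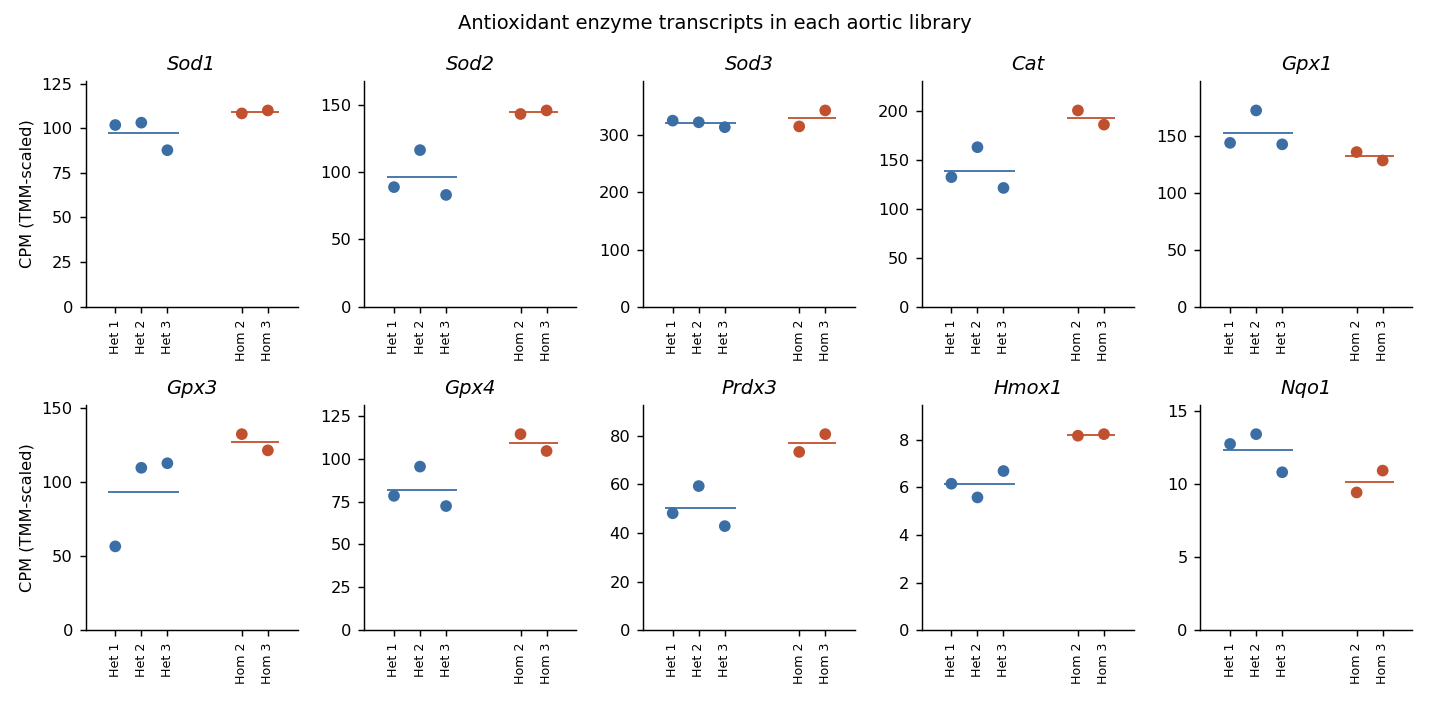
CPM (TMM-scaled, each axis from 0) of the 10 genes in the 3 heterozygous (blue) and 2 homozygous (orange) libraries, each point 1 library and each line a group mean. Sod1, Sod2, Cat, Gpx3, Gpx4, Prdx3 and Hmox1 lie higher in both homozygous libraries, Gpx1 lies lower, and Sod3 and Nqo1 overlap. Heterozygous replicate 2 is the highest control for Sod2, Cat, Gpx4 and Prdx3.

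Sod2, the manganese dismutase of mitochondria (GRCm38 chromosome 17, 13006846 to 13040063, plus strand), stood at 89.1, 117 and 83.2 CPM in control replicates 1, 2 and 3, against 144 and 146 CPM in knockout replicates 2 and 3. Both homozygous values lay above the highest control, and they differed from each other by less than the controls did. The means were 96.3 ± 17.9 (SD, n = 3) and 145 ± 1.87 CPM (SD, n = 2), giving a log2 difference of 0.59 (SE 0.150, edgeR adjusted p = 0.148, DESeq2 adjusted p = 0.0190). The edgeR call appeared without heterozygous replicate 2, the highest control (0.77, adjusted p = 0.0466), and with no low-count filter (0.60, adjusted p = 0.00327). The fit with no filter called 982 of 30400 genes higher, where the main fit called 0. Of the 100-base words of its transcripts, 12.8% also occur in transcripts of other genes, among them Rps6ka2.

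Sod1, the copper and zinc dismutase of the cytosol (chromosome 16, 90220754 to 90226329, plus strand), stood at 102, 103 and 87.8 CPM in the controls, against 108 and 110.1 CPM in the knockouts. The homozygous values lay just above the controls, by less than the spread among the controls. The log2 fold change was 0.16 (SE 0.103, edgeR adjusted p = 0.504). Sod1 overlaps Scaf4 on the opposite strand, and the strand setting of the counting is not given in the sources used here.

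Sod3, the secreted dismutase (chromosome 5, 52363791 to 52371418, plus strand), had the most counts of the 10 genes, with 326, 323 and 315 CPM in the controls, against 316 and 344 CPM in the knockouts. The groups overlapped, and the log2 fold change was 0.04 (SE 0.0925, edgeR adjusted p = 0.883). It was -0.02 without homozygous replicate 3. The 3 dismutases, made for 3 compartments, thus differed by 0.59, 0.16 and 0.04 on the log2 scale for the mitochondrial, cytosolic and secreted enzyme.

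The count ratio of Sod2 to Sod1 within a library does not depend on how libraries are scaled. It was 0.874, 1.13 and 0.948 in the controls and 1.32 and 1.33 in the knockouts. The homozygous ratios lay above every control. This ratio and those below were chosen after the levels were seen and were not tested.

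Among the enzymes that remove peroxides, Prdx3, the peroxiredoxin of mitochondria (chromosome 19, 60864051 to 60874556, minus strand), stood at 48.1, 59.3 and 42.8 CPM in the controls, against 73.3 and 80.6 CPM in the knockouts. The groups did not overlap, and heterozygous replicate 2 was again the highest control. The means were 50.1 ± 8.41 (SD, n = 3) and 77.0 ± 5.17 CPM (SD, n = 2), giving a log2 difference of 0.62 (SE 0.144, edgeR adjusted p = 0.130, DESeq2 adjusted p = 0.0106). With no low-count filter the edgeR adjusted p was 0.00193. By unadjusted edgeR p, Prdx3 ranked 488 and Sod2 701 among the 18192 genes.

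Cat, the catalase of peroxisomes (chromosome 2, 103453849 to 103485160, minus strand), stood at 132, 163 and 121 CPM in the controls, against 200.2 and 186 CPM in the knockouts. Both homozygous libraries exceeded the controls. The means were 139 ± 21.5 (SD, n = 3) and 193 ± 10.2 CPM (SD, n = 2), giving a log2 difference of 0.48 (SE 0.138, edgeR adjusted p = 0.180, DESeq2 adjusted p = 0.0511). Only the fit with no low-count filter, of the 14 alternatives, called it (adjusted p = 0.0160).

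Gpx4, the peroxidase that reduces lipid peroxides in membranes (chromosome 10, 80047166 to 80056439, plus strand), stood at 78.3, 95.4 and 72.4 CPM in the controls, against 114 and 104 CPM in the knockouts. The groups did not overlap, and heterozygous replicate 2 was once more the highest control. The log2 fold change was 0.41 (SE 0.133, edgeR adjusted p = 0.212, DESeq2 adjusted p = 0.110), and with no low-count filter edgeR called it (adjusted p = 0.0423). Of its 100-base words, 25.2% also occur in other genes, chiefly the pseudogene Gpx4-ps2, so its level is uncertain.

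Gpx1, the cytosolic glutathione peroxidase (chromosome 9, 108338903 to 108340343, plus strand), stood on the other side, at 144, 172 and 143 CPM in the controls, against 136 and 128 CPM in the knockouts. The homozygous values lay below every control, by less than the spread among the controls. The log2 fold change was -0.21 (SE 0.115, edgeR adjusted p = 0.432) and went from -0.26 to -0.10 with single libraries left out.

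Within each library, the ratio of Gpx4 to Gpx1 counts was 0.544, 0.553 and 0.508 in the controls and 0.842 and 0.814 in the knockouts. The ratio of Cat to Gpx1 was 0.918, 0.944 and 0.849 in the controls and 1.47 and 1.45 in the knockouts. Both ratios varied little within a group. Cat and Gpx4 lay above every control and Gpx1 below, so neither ratio could overlap between groups. The ratios therefore add nothing to the levels of the single genes, each of which missed the adjusted threshold in edgeR.

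Gpx3, the glutathione peroxidase secreted into plasma (chromosome 11, 54902453 to 54910377, plus strand), stood at 56.5, 109 and 113 CPM in the controls, against 132 and 121 CPM in the knockouts. Heterozygous replicate 1 lay far below all other libraries, and the other controls lay close to the homozygous ones. The log2 fold change was 0.45 (SE 0.274, edgeR adjusted p = 0.484), the least precise of the 10, and it was 0.19 without heterozygous replicate 1.

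Hmox1 (chromosome 8, 75093621 to 75100589, plus strand) had the fewest counts of the 10, at 6.15, 5.57 and 6.68 CPM in the controls, against 8.17 and 8.23 CPM in the knockouts. These rest on 168 to 268 counts per library, and the groups did not overlap. The log2 fold change was 0.42 (SE 0.147, edgeR adjusted p = 0.242, DESeq2 adjusted p = 0.214).

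Nqo1 (chromosome 8, 107388225 to 107403206, minus strand) stood at 12.8, 13.4 and 10.8 CPM in the controls, against 9.44 and 10.9 CPM in the knockouts. The groups overlapped, with homozygous replicate 3 next to heterozygous replicate 3. The log2 fold change was -0.28 (SE 0.145, edgeR adjusted p = 0.414), so the estimates for the NRF2 targets Hmox1 and Nqo1 had opposite signs, and neither passed.

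**Figure D2:**
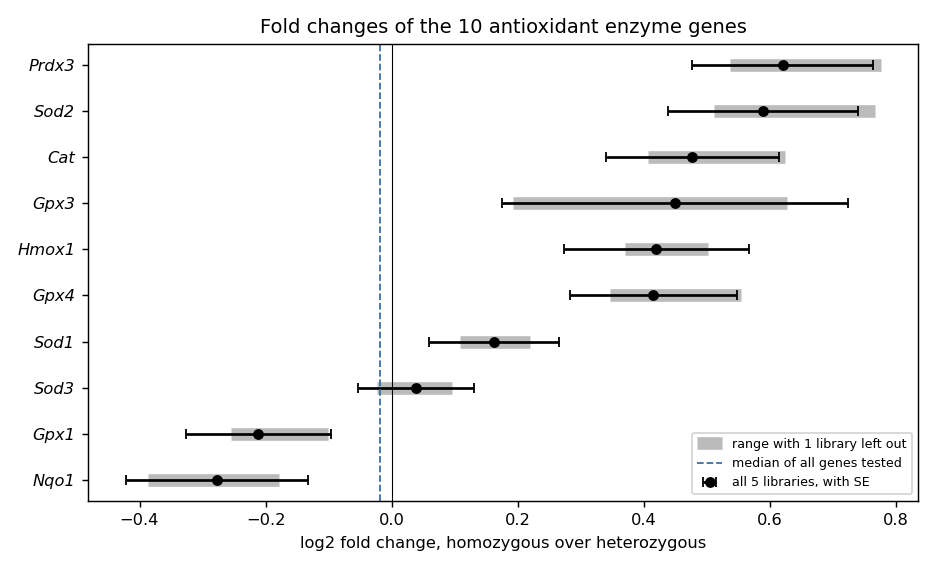
Log2 fold changes (homozygous over heterozygous) of the 10 genes with their SE (points and bars), and the range with each library left out in turn (grey). Prdx3 (0.62) and Sod2 (0.59) are largest, the grey range of Sod3 crosses 0, that of Gpx3 is the widest, and the dashed line is the median of all genes tested (-0.02).

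Levels of different genes can be set side by side only per transcript length, here as CPM per kilobase of merged exons. On that scale Gpx1 was the most abundant in the heterozygous libraries with a mean of 106, followed by Sod3 at 85.9, Cat at 53.0, Gpx3 at 51.2, Gpx4 at 47.6 and Prdx3 at 33.9 CPM per kilobase. Sod1 followed at 24.6, Sod2 at 9.62, Nqo1 at 7.95 and Hmox1 at 3.50 CPM per kilobase. The ranges of Cat, Gpx3 and Gpx4 overlapped in these libraries, as did those of Gpx3 and Prdx3 and of Sod2 and Nqo1. Within single libraries, Gpx1 lay above Sod3, Cat above Gpx4 and Sod2 above Nqo1 in every control. The place of Gpx3 relative to Cat, Gpx4 and Prdx3 changed between controls, so its order is not settled. In the homozygous libraries the same scale gave 91.7 for Gpx1 and 88.3 for Sod3, whose ranges now overlapped, and 73.8 for Cat. The Sod2 value is taken over 10008 merged exon bases, more than any other of the 10, and that of Sod1 over 3970, the next most. Both values depend on which forms of the gene are made, so the places of Sod1 and Sod2 in this order are not settled.

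The genes whose profile over the 5 libraries was closest to Prdx3 and Sod2, by the root mean square difference in centred log2 CPM among 9661 genes, were named by a rule and are given as a description. For Prdx3 they were Ndufv2, a subunit of respiratory complex I (0.0227), Cisd3, a mitochondrial iron-sulphur protein (0.0287), and Tenm4 (0.0309). For Sod2 they were Oplah (0.0140), Atp5o, a subunit of ATP synthase (0.0237), and Ndufs1, of complex I (0.0261). Ndufs1 stood at 102, 130 and 96.3 CPM in the controls, against 162 and 171 CPM in the knockouts, and its likeness to Sod2 is what it was chosen for.

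The ratio of Sod2 to Sdha, a succinate dehydrogenase subunit of the same organelle, was 0.314, 0.324 and 0.330 in the controls and 0.294 and 0.311 in the knockouts. These groups did not overlap, but the nearest values, 0.314 and 0.311, lay close together. The ratio of Prdx3 to Sdha was 0.170, 0.165 and 0.169 against 0.150 and 0.171, which overlapped. Sdha had the largest log2 fold change (0.68) of the 12 mitochondrial genes described below, whose median was 0.18, so these ratios do not stand for the organelle's genes as a whole.

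**Figure D3:**
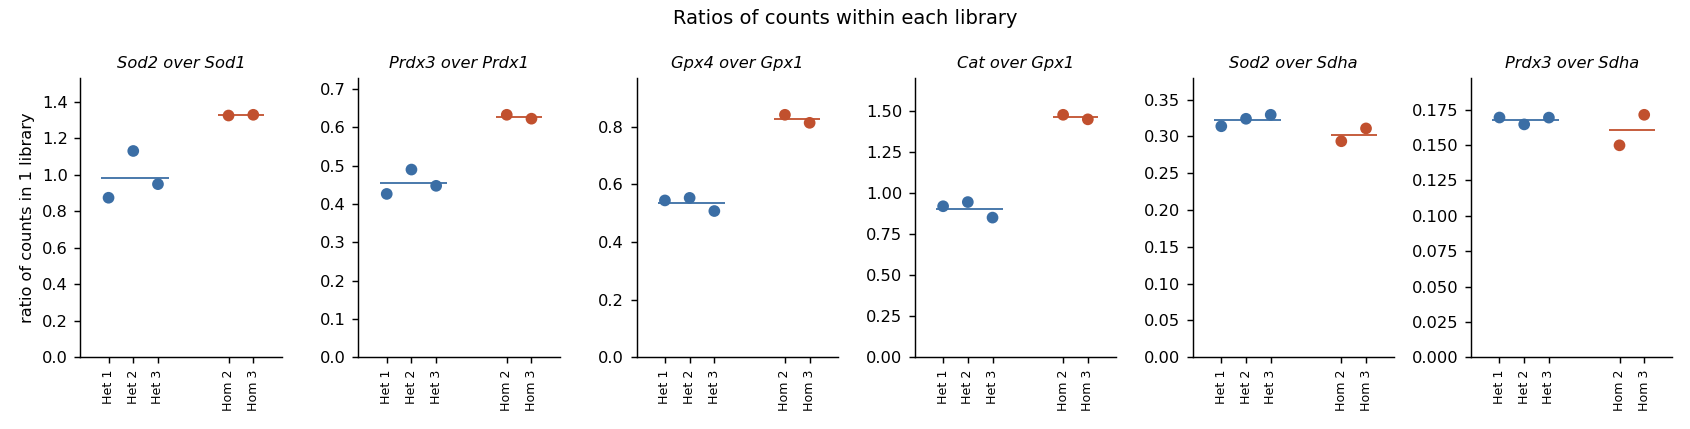
Ratios of raw counts of 2 genes within each library (each axis from 0; blue heterozygous, orange homozygous; lines are group means). Sod2 over Sod1, Prdx3 over Prdx1, Gpx4 over Gpx1 and Cat over Gpx1 are higher in both homozygous libraries, whereas Sod2 over Sdha is slightly lower and Prdx3 over Sdha overlaps.

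The other genes of these pathways were read from fixed lists, and 0 of their members passed the edgeR adjusted threshold. Their counts at an unadjusted edgeR p under 0.05 stand beside 9.04% of all genes higher and 6.75% lower, and those of DESeq2 beside 3.33% higher and 2.61% lower. DESeq2 called 0 genes in the lists of peroxiredoxins and thioredoxins, glutathione supply, selenoproteins, NRF2 regulators, metal handling and haem breakdown. Among 15 other peroxiredoxin and thioredoxin genes, 3 were higher and 3 lower at an unadjusted edgeR p under 0.05, with a median log2 fold change of 0.16. Without homozygous replicate 3 the counts were 0 and 3, and without homozygous replicate 2 they were 1 and 0. Prdx6 gave 0.30 (SE 0.0880) and Txnrd3, a thioredoxin reductase, -0.39 (SE 0.113). Txnip, the thioredoxin-binding inhibitor, gave 0.39 (SE 0.164), and Prdx1, the cytosolic counterpart of Prdx3, 0.16 (SE 0.124). The ratio of Prdx3 to Prdx1 was 0.426, 0.489 and 0.447 in the controls and 0.632 and 0.622 in the knockouts.

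Genes that supply glutathione, with glutaredoxins and further peroxidases, had a median of -0.02 over 11 genes, with 1 higher (Ggt5, 0.58, SE 0.172) and 1 lower (Glrx2, a mitochondrial glutaredoxin, -0.32, SE 0.0850) at an unadjusted edgeR p under 0.05. That is 9.09% in each direction, near the shares of all genes. The higher count was 0 without homozygous replicate 3 and 2 without heterozygous replicate 2. Gpx8, of the endoplasmic reticulum, gave 0.14 (SE 0.173) and Glrx3 0.13 (SE 0.0841). Of 15 glutathione S-transferases 5 were higher and 0 lower by that measure, where 9.04% and 6.75% of all genes were, and DESeq2 called 3 higher, where it called 3.33%. Gsta4, which conjugates products of lipid peroxidation, gave 1.20 (SE 0.266), Mgst1 0.69 (SE 0.1997), Gstz1 0.55 (SE 0.116) and the abundant Gstm1 -0.16 (SE 0.108). Gsta4 was a low gene, at 4.49, 5.01 and 2.82 CPM in the controls, against 7.92 and 11.1 CPM in the knockouts. The transferase count was 2 without homozygous replicate 3, where 4.85% of all genes in that fit were higher.

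Selenocysteine insertion factors and selenoproteins other than the peroxidases had a median of -0.07 over 12 genes, with 2 higher and 0 lower at an unadjusted edgeR p under 0.05. The higher count was 0 without homozygous replicate 3 and 1 without homozygous replicate 2 or heterozygous replicate 1, and 1 was lower without heterozygous replicate 3. Selenop, which carries selenium in plasma, gave 0.45 (SE 0.145), Sephs2, which makes the selenium donor, 0.42 (SE 0.148), Selenon -0.20 (SE 0.0959) and Selenot 0.06 (SE 0.111). Of Selenop's 100-base words 12.0% and of those of Sephs2 33.3% occur in transcripts of other genes.

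The 9 regulators of the NRF2 pathway had log2 fold changes from -0.33 to 0.06, with a median of -0.05. Of these, 0 were higher and 1 lower at an unadjusted edgeR p under 0.05. The lower count was 2 without heterozygous replicate 1 and 0 without heterozygous replicate 2 or either homozygous library. Nfe2l2, the gene of NRF2 itself, stood at 89.5, 82.0 and 81.6 CPM in the controls, against 77.1 and 92.0 CPM in the knockouts, which overlapped. Its inhibitor Keap1 gave -0.12 (SE 0.0877), its partner Mafk -0.33 (SE 0.110), Nfe2l1 0.06 (SE 0.113) and Sqstm1 -0.05 (SE 0.10003). Of 16 NRF2 target genes apart from the 10, 6 were higher and 0 lower by that measure and DESeq2 called 6 higher, with a median of 0.11. This list shares genes with the lists above, and its count stayed at 6 whichever single library was omitted. The 6 were Gsta4, the pentose phosphate pathway genes G6pdx, Pgd, Taldo1 and Tkt, and Me1, malic enzyme, which like G6pdx and Pgd makes NADPH for glutathione reduction and for fat synthesis. Pgd stood at 55.6, 56.5 and 52.7 CPM in the controls, against 90.2 and 103 CPM in the knockouts, a log2 fold change of 0.81 (SE 0.0954, edgeR adjusted p = 0.104, DESeq2 adjusted p = 1.09e-08). Tkt gave 0.64 (SE 0.120), Me1 0.68 (SE 0.138) and Abcc1 0.00 (SE 0.0978). The other 10 lay between -0.16 and 0.16, among them Gclc, Gclm, Txnrd1, Gsr, Txn1 and Prdx1.

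Among 13 genes of oxidant production, 5 were higher and 1 lower at an unadjusted edgeR p under 0.05, and DESeq2 called 2 higher and 1 lower. Nox4, the main NADPH oxidase of smooth muscle, stood at 407, 440 and 463 CPM in the controls, against 301 and 329 CPM in the knockouts, a log2 fold change of -0.47 (SE 0.105, edgeR adjusted p = 0.124, DESeq2 adjusted p = 0.00210). Cybb, the phagocyte oxidase, gave 0.75 (SE 0.211), Aox1 0.46 (SE 0.123) and Xdh, xanthine dehydrogenase, 0.28 (SE 0.149). The oxidase counts without single libraries went from 2 higher (without homozygous replicate 3) to 7 (without heterozygous replicate 3), and 2 were lower without homozygous replicate 2.

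Genes of the 2 organelles that house Cat, Sod2 and Prdx3 were read in the same way. All 9 peroxisomal genes tested had a log2 fold change above 0, and 6 had an unadjusted edgeR p under 0.05, 2 without homozygous replicate 3, and DESeq2 called 2. Pex11a gave 0.56 (SE 0.120), Pex3 0.42 (SE 0.113) and Abcd3 0.40 (SE 0.145). Of 12 mitochondrial genes of energy metabolism and upkeep, 4 were higher by that measure, 2 without homozygous replicate 3, with a median of 0.18, and DESeq2 called 3. Sdha gave 0.68 (SE 0.154), Cs, citrate synthase, 0.59 (SE 0.162), Hspa9 0.55 (SE 0.161) and Vdac1 0.32 (SE 0.127).

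Genes that handle copper and other metals, of which the dismutases use copper, zinc or manganese, had a median of 0.18 over 6 genes, with 0 at an unadjusted edgeR p under 0.05, 2 without heterozygous replicate 3 and 1 without heterozygous replicate 2. Atox1, a copper chaperone, gave 0.27 (SE 0.153), Atp7a, which loads copper onto secreted enzymes such as Sod3, 0.07 (SE 0.0926), Mt1 0.17 (SE 0.239) and Mt2 0.48 (SE 0.376). Among 6 genes of haem breakdown and iron storage 1 was higher by that measure, Ftl1 (0.30, SE 0.0924), a ferritin subunit that shares 44.7% of its 100-base words with other genes. That count was 0 without homozygous replicate 2 and 2 without heterozygous replicate 2. Hmox2, the constitutive haem oxygenase, gave 0.25 (SE 0.141), Blvrb 0.20 (SE 0.107) and Fth1 -0.05 (SE 0.106).

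**Figure D4:**
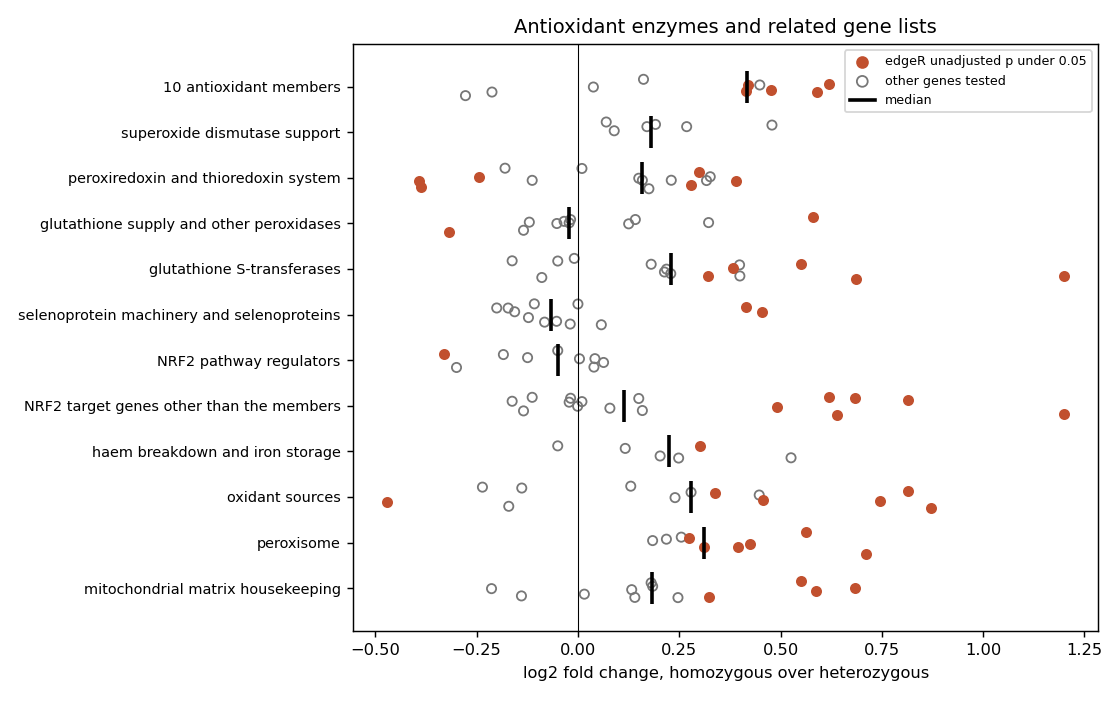
Log2 fold changes (homozygous over heterozygous) of the 10 antioxidant enzymes and of the tested genes of each related list, 1 point per gene, filled where the unadjusted edgeR p is under 0.05, with the list's median as a bar. The NRF2 target list splits into 6 genes from 0.49 to 1.20 and 10 genes from -0.16 to 0.16, and the peroxisomal genes all lie above 0.

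Markers of other cell types differed between the libraries alongside these genes. Their counts at an unadjusted edgeR p under 0.05 stand beside 9.04% of all genes higher and 6.75% lower. Over all genes, 1530 were higher and 1061 lower without heterozygous replicate 1, and 1594 and 884 without heterozygous replicate 2. Without heterozygous replicate 3 they were 1729 and 1175. Without a homozygous library fewer genes passed in all, as given above. A smaller marker count there was not tested against that drop. The summed CPM of 8 brown adipocyte markers was 369, 716 and 281 in the controls and 1129 and 1049.8 in the knockouts, and all 8 had an unadjusted edgeR p under 0.05, 4 without homozygous replicate 2. Heterozygous replicate 2 was the highest and replicate 3 the lowest of the controls in that sum, as in Sod2, Cat, Gpx4 and Prdx3. Ucp1 and Cidea, with the highest CPM among them, stood at 152, 337 and 87.5 CPM and at 83.5, 149 and 82.5 CPM in the controls, so no control was free of them. The sum of 10 general adipocyte markers, led by Car3 and Fabp4, was 2230.3, 3389 and 2261 in the controls and 3903 and 4372 in the knockouts, with 8 of 10 at an unadjusted edgeR p under 0.05, 3 without homozygous replicate 3 and 5 without homozygous replicate 2 or heterozygous replicate 1. Me1, G6pdx and Pgd, which also serve fat synthesis, likewise had their highest values in the homozygous libraries. The part of these cells in the differences of these genes was not tested.

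Skeletal muscle, another tissue rich in mitochondria, gave sums over 10 markers of 639, 308 and 9.67 CPM in the controls, against 944 and 2571 CPM in the knockouts. Replicate 1 was the highest of the controls in this sum. The part of skeletal muscle in the differences of the antioxidant genes was not tested. By edgeR 5 of the 10 muscle markers had an unadjusted p under 0.05, 0 without homozygous replicate 3, 3 without heterozygous replicate 2 and 9 without heterozygous replicate 3. In that last library, the muscle markers Myh4 and Pvalb were at 0 counts. Macrophage markers, led by Lyz2 and Mrc1, summed to 302, 265 and 346 CPM in the controls, against 416 and 553 CPM in the knockouts, with 8 of 10 at an unadjusted edgeR p under 0.05, 3 without homozygous replicate 3. Hmox1, which macrophages also express, had the same order of controls (replicate 3 highest, replicate 2 lowest), and so did Cybb. The part of macrophages in either was not tested.

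Erythrocyte markers, led by Hbb-bs and Hba-a1, summed to 38.1, 298 and 88.2 CPM in the controls, against 24.1 and 29.1 CPM in the knockouts. At an unadjusted p under 0.05, edgeR had 5 of 6 lower, DESeq2 6 and limma-voom 0. Gpx1, an enzyme abundant in red cells, was also highest in heterozygous replicate 2 and lowest in the homozygous libraries. Cat and Prdx2, abundant there too, had log2 fold changes of 0.48 and 0.18 (SE 0.120). The part of red cells in these values was not tested. Without heterozygous replicate 2 the log2 fold change of Gpx1 was -0.10. Fibroblast markers, led by Dcn and Col15a1, summed to 2525, 2242 and 1858 CPM against 2373 and 2786 CPM, with 1 of 9 at an unadjusted edgeR p under 0.05, 4 without heterozygous replicate 1 and 0 without homozygous replicate 2. Endothelial markers, led by Vwf and Pecam1, summed to 763, 968 and 740.3 against 1111 and 399 CPM, with 0 of 8, 4 of 8 lower without homozygous replicate 2, and 1 of 8 higher without homozygous replicate 3 or heterozygous replicate 2. The smooth muscle sum over 7 markers was 40146, 40060 and 40929.5 CPM against 23865 and 23067 CPM. All 7 had an unadjusted edgeR p under 0.05, though these markers were picked with their values known. Fewer smooth muscle cells and less of these transcripts per cell cannot be told apart here. Nox4 and Sod3, both made by smooth muscle, had log2 fold changes of -0.47 and 0.04, and the part of smooth muscle content in either was not tested.

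**Figure D5:**
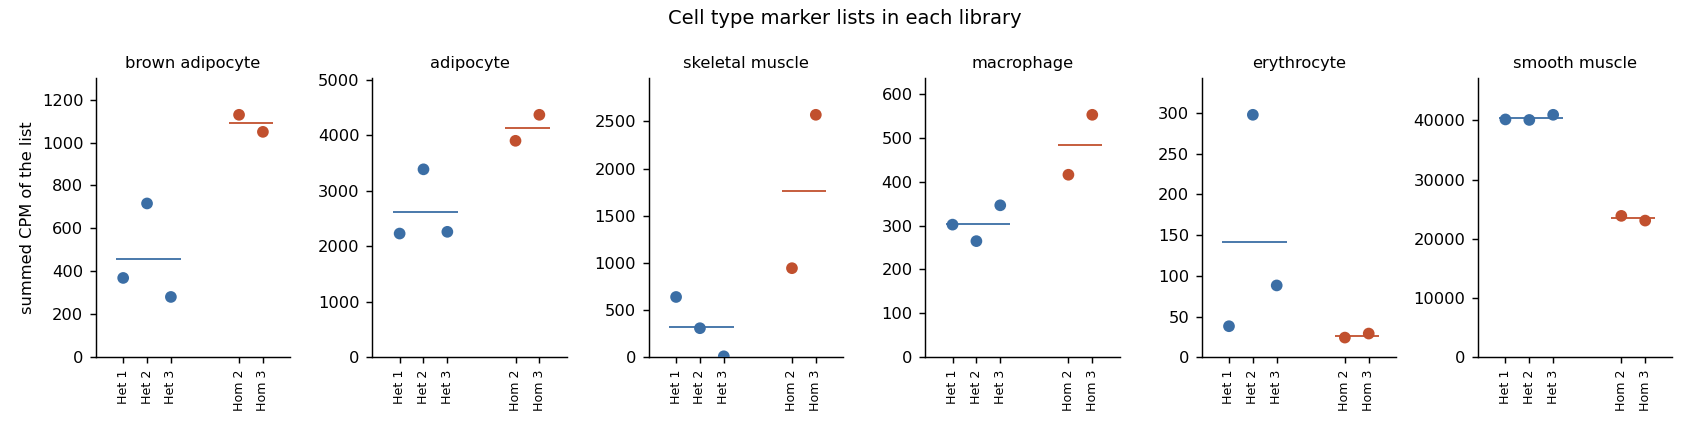
Summed CPM of 6 lists of cell type markers in each library (each axis from 0; blue heterozygous, orange homozygous; lines are group means). Brown adipocyte sums are highest in both homozygous libraries (1129 and 1049.8) and, among controls, in replicate 2 (716), while smooth muscle sums are lower in both homozygous libraries.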

How the data were processed

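RNA of single aortae, 3 heterozygous and 3 homozygous, was sequenced from stranded poly(A) libraries, per the labels. Of these, 3 heterozygous and 2 homozygous libraries were analysed. The authors deposited unnormalized read counts by gene, with columns named by the sample descriptions. The submitters' processing notes name GRCm38, Subread 1.6.4 (featureCounts), STAR 2.7.0f and fastp 0.20.0. Neither the annotation release nor the strand setting is given in the sources used here. Library totals ranged from 26177821 to 34311855 counts.

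Genes were filtered with edgeR's filterByExpr and scaled by TMM. The 18192 genes kept were tested with edgeR 4.0.16 (R 4.3.3), quasi-likelihood F test on group, Benjamini-Hochberg adjustment over all genes, threshold 0.05. The SE is the log2 fold change divided by the square root of F. DESeq2 1.42.0, limma-voom (limma 3.58.1), other scaling and filters, a replicate block and each library left out were alternatives. The scripts were tested on simulated counts.

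The 10 genes, the lists and the rule for named genes were chosen with earlier results of these data known. All 10 genes were named, with, of each list, the 2 most abundant tested genes and the 2 others with the smallest edgeR p, of each marker list the 2 most abundant, Srf, and the 3 genes of at least 10 CPM closest in profile to the 2 antioxidant genes with the smallest p. The ratios, the promoter motifs, Nfe2l2, G6pdx, Taldo1, Gclc, Gclm, Txnrd1, Gsr, Txn1, Prdx2, Myh4 and Pvalb were added after values were seen. The value of 1 gene of the peroxisome list is not reported here. Coordinates and exon lengths are from GENCODE mouse release 21 (GRCm38). Its names include 54586 of the table's 55453 symbols.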

Additional observations from a re-analysis of the deposited data

How the results depend on the processing

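Of the 10 antioxidant genes, 9 kept the sign of their log2 fold change in all 14 alternatives. Sod3 ranged from -0.023 (without homozygous replicate 3) to 0.096 with single libraries left out. DESeq2 called 2 of the 10 and 524 genes higher and 411 lower in all. With no low-count filter edgeR called 4 of the 10 higher and, of 30400 genes, 982 higher and 432 lower. The fold changes were near those of the main fit, as for Sod2 (0.60 against 0.59), in which 0 genes were called. limma-voom called 1 gene lower. With single libraries left out edgeR called 0 to 1 of the 10 (Sod2 without heterozygous replicate 2), 0 to 139 genes higher and 0 to 9 lower; with 1 homozygous library left, it is assumed to vary like the controls. At an unadjusted edgeR p under 0.05, the members that were higher numbered 2 without homozygous replicate 2 and 4 or 5 without any other single library. The replicate block, pairing libraries by label number, called 0 of the 10, 3 genes higher and 2 lower. Deviations of same-numbered libraries correlated at -0.00991 (replicate 2) and -0.194 (replicate 3) across genes, so the numbers were not taken as pairs, and a crossed pairing, added after the data were seen, called 0. Other scaling, the stricter filter and, added after the data were seen, omission of mitochondrial genes or of Rn7sk and Gm26917 called 0. The fewest counts were those of Hmox1, with 168 to 268 per library, and its SE (0.147) was near that of Sod2 (0.150).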

Other observations

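Together the 10 antioxidant genes held 995, 1161 and 994 CPM in the heterozygous and 1241.2 and 1239.8 CPM in the homozygous libraries. Within that pool, Gpx1 took 14.5%, 14.8% and 14.3% of counts in the heterozygous and 10.9% and 10.4% in the homozygous libraries. The share of Sod2 was 8.95%, 10.0% and 8.37% in the heterozygous and 11.6% and 11.8% in the homozygous libraries. Sod3 held the largest share in every library, from 25.4% to 32.8%.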
